A study of Mus musculus with 79 samples.

Results

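The 10 genes described here, Nanog, Klf2, Klf4, Klf5, Esrrb, Tfcp2l1, Tbx3, Nr0b1, Nr5a2 and Zfp42, encode transcription factors of the naive pluripotent state. They were taken by symbol from the tables of the E14 cells and the clones, and by the same transcript identifiers from the SCC1-mAID table. Genes with reads numbered 19526 in the E14 table, 21193 in that of SCC1-mAID and 19482 in that of the clones. All 10 passed the filter on low reads in the 3 sets.

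Mouse embryonic stem cells were grown with serum and leukaemia inhibitory factor (LIF) and exposed to 1 uM retinoic acid (RA), which makes them differentiate. Wild-type E14 cells were sampled as total RNA at 0 h (2 libraries), 2, 4 and 6 h (4 each), 24 h (3), 48 h (4) and 72 h (4), the last of which the sample characteristics give as 74 h. The SCC1-mAID line carries Rosa26::Tir1 and Scc1-mAID-eGFP in all its groups, so that auxin destroys the cohesin subunit SCC1, and was sampled as nuclear RNA after 500 uM auxin for 6 h with RA for the last 4 h, auxin for 6 h, RA for 4 h, or no treatment (3 libraries each). Deletion clones E3 and H12, which lack a transient enhancer within the Hoxb locus, and the wild-type clone G4 were sampled as nuclear RNA before RA and after 2, 4 and 6 h and 24, 48 and 74 h of it (2 libraries per clone and time).

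Each genotype in the last set rests on few clones, and with 1 wild-type clone the deletion and the clone cannot be told apart. The loss of SCC1 protein cannot be checked from RNA, and the enhancer deletion was not checked here. E14 libraries held 2352114 to 21082331 reads, the lowest depth being at 24 to 72 h. SCC1-mAID libraries held 3126363 to 7499040 reads and clone libraries 4754309 to 10450047. Markers of general pluripotency, such as Pou5f1 and Sox2, summed to 5213 and 5361 CPM at 0 h in E14, so the labelled cell type was borne out by its markers. Levels are edgeR's CPM, reads relative to the TMM-adjusted library size; this scales for depth and not for transcript length. E14 reads are exonic, whereas nuclear reads were counted over whole gene spans with introns, so levels are not set against each other across sets. The separate origin of cultures is stated for E14 only, and p-values in the other sets measure the spread between these libraries.

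Naive pluripotency is the state of the pre-implantation epiblast. In culture with LIF it is held by a network of transcription factors that activate one another's genes. LIF acts through STAT3 on Klf4 and Tfcp2l1, the phosphatidylinositol 3-kinase branch acts on Tbx3, and Nanog and Esrrb can replace parts of the LIF signal when overexpressed. RA drives exit from this state, and in serum it leads to mixed cultures in which endoderm-like and neural cells appear. In bulk RNA, fewer cells expressing a gene and less RNA per cell cannot be told apart.

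Promoter sequences are shown for Nanog, Zfp42 and Esrrb, the 3 members whose windows held a match to any of the motifs searched, so the choice was made after the matches were seen. Across the 67 libraries of E14 and the clones, with each set centred on its own mean, the Pearson correlation of log2 levels was 0.987 between Esrrb and Zfp42, 0.945 between Nanog and Zfp42 and 0.943 between Nanog and Esrrb. These are descriptions, since the libraries share their time of RA. Capitals mark motif matches, namely the octamer core ATGCAAA bound by OCT4, the SOX core CATTGT, the KLF motif GGGTGTGG and the STAT motif TTCNNNGAA, searched on both strands. Each window runs from 250 bases before to 50 bases after the annotated start, from RefSeq on build GRCm38.p6, 5′ to 3′ on the gene's strand.
Nanog: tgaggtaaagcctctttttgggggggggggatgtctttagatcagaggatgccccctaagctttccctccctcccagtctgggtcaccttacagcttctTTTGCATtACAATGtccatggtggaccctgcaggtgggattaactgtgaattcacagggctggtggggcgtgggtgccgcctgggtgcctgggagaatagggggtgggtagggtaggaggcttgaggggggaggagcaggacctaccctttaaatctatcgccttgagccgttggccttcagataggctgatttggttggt
Zfp42: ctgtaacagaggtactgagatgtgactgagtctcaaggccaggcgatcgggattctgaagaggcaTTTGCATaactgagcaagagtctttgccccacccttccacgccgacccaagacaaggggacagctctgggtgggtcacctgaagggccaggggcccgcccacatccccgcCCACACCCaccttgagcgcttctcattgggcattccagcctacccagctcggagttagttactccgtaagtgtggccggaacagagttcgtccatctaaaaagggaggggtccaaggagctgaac
Esrrb: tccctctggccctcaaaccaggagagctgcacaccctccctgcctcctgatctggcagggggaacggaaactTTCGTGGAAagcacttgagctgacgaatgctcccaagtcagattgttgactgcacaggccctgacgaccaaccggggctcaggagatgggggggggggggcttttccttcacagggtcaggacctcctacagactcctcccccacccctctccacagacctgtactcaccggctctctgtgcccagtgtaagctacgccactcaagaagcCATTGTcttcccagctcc
The Nanog window lies at chr6:122707315-122707614 on the plus strand, with the octamer core at -151 and the SOX core at -143 from the start. The Zfp42 window lies at chr8:43306960-43307259 on the minus strand, with an octamer core at -185 and a KLF motif at -75. The Esrrb window, of the upstream start, lies at chr12:86360867-86361166 on the plus strand, with a STAT motif at -178 and a SOX core at 32. The second Esrrb window, at chr12:86421394-86421693, held none of these motifs. This second window belongs to the transcript whose reads were used in E14, and the upstream window to that used in SCC1-mAID and the clones. RefSeq windows were matched for 8 of the 10 members, in all but Klf5 and Tbx3, and those of Klf2, Klf4, Tfcp2l1, Nr0b1 and Nr5a2 held no match, although Esrrb, Tfcp2l1 and Nr5a2 had profiles as closely matched (r of 0.960 to 0.967). The octamer core was in windows of 2 of these 8 members and in 4.63% of all 32851 windows, the SOX core in 2 members and 12.6%, the KLF motif in 1 and 3.56%, and the STAT motif in 1 and 8.3%. The half-site AAGGTCA of orphan nuclear receptors was in no member window and in 4.72% of all windows. No match overlapped another. A match is a description of letters, not of binding.

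Levels per transcript length in untreated E14 cells, from the authors' deposited FPKM averaged over the 2 libraries at 0 h, were highest for Zfp42 (89.8 FPKM) and Nanog (62.7 FPKM). Klf5 (49.4 FPKM), Klf2 (48.6 FPKM), Klf4 (40.5 FPKM) and Esrrb (37.8 FPKM) followed. Nr0b1 (20.4 FPKM), Tfcp2l1 (20.1 FPKM), Tbx3 (18.5 FPKM) and Nr5a2 (12.7 FPKM) were lowest. At 72 h the order had changed, with Nanog (59.9 FPKM) and Tbx3 (42.0 FPKM) at the top and Nr5a2 (2.78 FPKM) and Nr0b1 (2.18 FPKM) at the bottom.

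**Figure D1:**
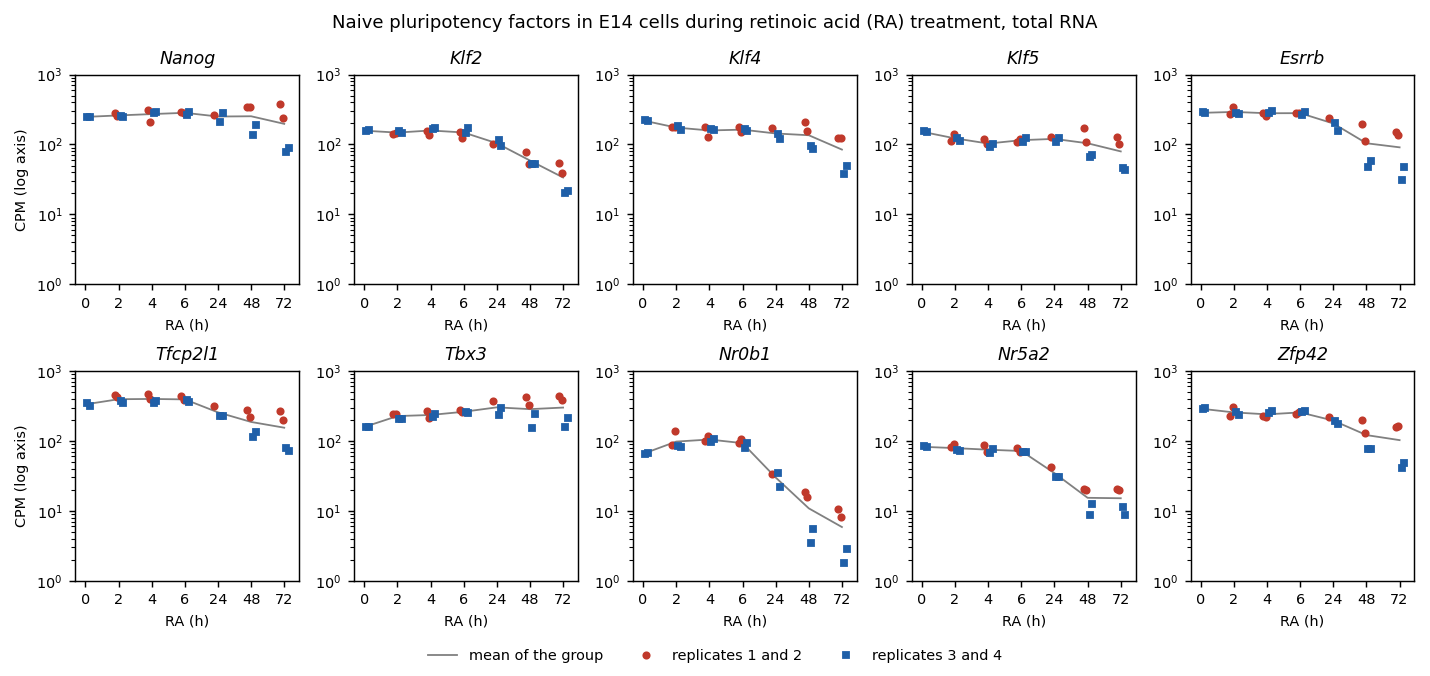
CPM (log axis) of each of the 10 genes in every E14 library against hours of RA (evenly spaced on the axis); lines join group means and symbols tell replicates 1 and 2 from 3 and 4. Replicates 1 and 2 lie above replicates 3 and 4 at 72 h in all 10 panels, and Nr0b1 falls furthest. How many of all genes separate in this way was not counted.

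In E14 cells the nuclear receptor genes Nr0b1 and Nr5a2 were the first called lower, at 24 h of RA. Klf2, Esrrb and Zfp42 were called lower from 48 h, and Klf4, Klf5 and Tfcp2l1 at 72 h. This order depends on the method, since DESeq2 did not call Nr0b1 at 24 h (adjusted p = 0.079) and called Klf2 lower (-0.60, adjusted p = 0.045) and Tbx3 higher (0.93, adjusted p = 0.017). With only the compared groups in the fit, Klf5 was already called lower at 4 h (-0.56, adjusted p = 0.048, edgeR). At 6 h that fit called Klf4 (-0.43, adjusted p = 0.030) and Klf5 (-0.40, adjusted p = 0.047, both edgeR) lower. It called Tbx3 and Nr0b1 higher at both of these times. Nanog did not pass the test at any time, and Tbx3 rose at 48 and 72 h. At 72 h 8 of 10 members were called lower than at 0 h and 1 higher, where 29.3% of all tested genes were called lower and 30.4% higher. At 24 h 2 members were called lower, against 13.3% of all genes, and at 48 h 5 were called lower and 1 higher, against 26.9% and 28.9%. A call means an adjusted p below 0.05 in edgeR's quasi-likelihood test. With all groups fitted together, no member was called at 2, 4 or 6 h by edgeR or by DESeq2. In edgeR 0, 0 and 1 had an unadjusted p under 0.05, while 0.497%, 2.44% and 3.96% of all genes were called.

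Nanog encodes the homeodomain factor that anchors the network. At 72 h it had 382, 239, 78.0 and 89.2 CPM in replicates 1 to 4, against 249 and 247 CPM at 0 h. Replicate 1 lay above the 0 h libraries and replicates 2 to 4 below, so the groups overlapped. The log2 change was -0.33 ± 0.44 (SE), with an adjusted p of 0.54 (edgeR). Without replicate 1 at 72 h it was -0.89 and called (adjusted p = 0.049, edgeR).

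Klf2, Klf4 and Klf5 encode Krüppel-like factors that act in part redundantly in self-renewal. Klf2 had 77.6, 53.0, 52.2 and 53.0 CPM at 48 h, against 155 and 160 CPM at 0 h. At 72 h it had 53.9, 39.6, 19.96 and 21.5 CPM, so both late groups lay wholly below 0 h. It fell by 1.42 ± 0.22 on the log2 scale at 48 h and by 2.22 ± 0.23 at 72 h, and was also lower at 72 h than at 48 h (-0.80), the only member called in that step, against 6.09% of all genes called lower. Klf4 had 125, 125, 38.1 and 49.1 CPM at 72 h, against 220 and 220 CPM at 0 h, a log2 change of -1.38 ± 0.35. Klf5 had 126, 103, 46.3 and 43.4 CPM at 72 h, against 154 and 151 CPM at 0 h, a log2 change of -0.93 ± 0.33. Neither Klf4 nor Klf5 overlapped its 0 h libraries at 72 h, but at 48 h replicate 1 of Klf5, with 173 CPM, still lay above them. Without that library Klf4 (-1.0) and Klf5 (-0.93) were already called at 48 h, whereas the call of Klf5 at 72 h was lost without either 0 h library or without replicate 3 or 4 at 72 h (adjusted p 0.059 to 0.080, edgeR). It was also lost under the authors' size factors (-0.67, adjusted p = 0.096, edgeR), with limma (adjusted p = 0.055) and with only the compared groups (adjusted p = 0.083, edgeR). The step of Klf2 from 48 h to 72 h lost its call without replicate 1 at 48 h or replicate 3 or 4 at 72 h (adjusted p 0.067 to 0.075, edgeR).

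Esrrb encodes an orphan nuclear receptor that binds with OCT4 at naive enhancers. It had 196, 113, 48.1 and 58.6 CPM at 48 h, against 288 and 277 CPM at 0 h. At 72 h it had 151, 135, 31.1 and 47.5 CPM, again all below 0 h. The log2 changes were -1.44 ± 0.46 at 48 h and -1.63 ± 0.46 at 72 h, and the call at 48 h was lost without 0 h replicate 3 (adjusted p = 0.053, edgeR) and with only the compared groups (adjusted p = 0.10, edgeR). Nr5a2 encodes a nuclear receptor that can stand in for OCT4 in reprogramming. It had 42.6, 30.6 and 30.5 CPM at 24 h in replicates 1, 3 and 4, against 83.4 and 81.3 CPM at 0 h. Its log2 change was -1.25 ± 0.22 at 24 h (adjusted p = 0.00022, edgeR) and -2.43 ± 0.22 at 72 h. No library from 24 h on reached the 0 h level.

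Nr0b1 encodes DAX1, a receptor without a DNA-binding domain of the usual kind that binds partners such as NR5A2 and OCT4. It had 88.3, 137, 84.2 and 81.2 CPM at 2 h, all above the 64.4 and 66.2 CPM at 0 h, but this difference was not called. At 24 h it had 33.4, 34.9 and 21.6 CPM, and at 72 h 10.5, 8.23, 1.81 and 2.89 CPM, the last 4 values resting on 32, 26, 6 and 7 reads. Its log2 change was -1.11 ± 0.37 at 24 h (adjusted p = 0.031, edgeR), -2.60 ± 0.39 at 48 h and -3.46 ± 0.42 at 72 h. Between neighbouring times it fell by 1.62 from 6 h to 24 h and by 1.48 from 24 h to 48 h on the log2 scale. Nr5a2 was the other member called lower in the first step and Klf2 (-0.82) and Nr5a2 were the others in the second, so that 2 and 3 members were called lower, against 11.8% and 11.6% of all genes. In the paired fit of the second step Esrrb (-1.10, adjusted p = 0.0497, edgeR) was called as well, making 4. The call against 0 h at 24 h was lost without either 0 h library or without replicate 3 or 4 at 24 h (changes of -0.95 to -1.25, adjusted p 0.051 to 0.13, edgeR). It was also lost under the authors' size factors (adjusted p = 0.055, edgeR) and with limma (adjusted p = 0.24).

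Tfcp2l1 encodes a factor downstream of LIF. It had 269, 197, 79.8 and 71.0 CPM at 72 h, against 347 and 319 CPM at 0 h, a log2 change of -1.10 ± 0.38. Zfp42 encodes REX1, whose RNA is a common reporter of the naive state. It had 201, 130, 77.5 and 76.0 CPM at 48 h, against 285 and 292 CPM at 0 h. Its log2 changes were -1.25 ± 0.40 at 48 h and -1.49 ± 0.40 at 72 h. Both genes were below their 0 h libraries in all 4 libraries at 72 h. The call of Tfcp2l1 at 72 h was lost without either 0 h library (adjusted p = 0.077 without replicate 3 and 0.051 without replicate 4, edgeR), as well as under the authors' size factors (-0.85, adjusted p = 0.060, edgeR) and with only the compared groups (adjusted p = 0.094, edgeR). Without replicate 1 at 48 h it was already called at 48 h (-1.10). The call of Zfp42 at 48 h was lost without 0 h replicate 4 (adjusted p = 0.058, edgeR) and with only the compared groups (adjusted p = 0.059, edgeR).

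Tbx3 encodes a T-box factor of the network that is also active in endoderm and other lineages. It had 442, 386, 159 and 211 CPM at 72 h, against 157 and 159 CPM at 0 h. Replicates 1, 2 and 4 were above 0 h and replicate 3 lay beside it. Its log2 change was 0.85 ± 0.34 at 48 h (adjusted p = 0.040, edgeR) and 0.92 ± 0.34 at 72 h (adjusted p = 0.024, edgeR). Neither call held without either 0 h library, or without replicate 1 or 2 of that time (changes of 0.58 to 0.92, adjusted p 0.063 to 0.15, edgeR), nor with only the compared groups (adjusted p = 0.14 at 48 h and 0.090 at 72 h, edgeR). An antisense gene, Tbx3os1, overlaps Tbx3 by 504 bases on the other strand, and whether counting used the strand is not stated, so their reads may be mixed.

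The 4 E14 replicates differed most at 48 and 72 h. The mean of replicates 1 and 2 over that of replicates 3 and 4 had a median over the members of 2.05 at 48 h and of 2.98 at 72 h, against 0.98 to 1.09 at 2 to 6 h and 1.25 at 24 h, where 7 of 10 members were higher in replicate 1 than in replicates 3 and 4. At 72 h replicates 1 and 2 lay above replicates 3 and 4 for 10 of 10 members, by 2.00 times (Nr5a2) to 3.98 times (Nr0b1). How many of all genes separate in this way was not counted at either time. Whole libraries differed too, by a chi-squared of reads per gene (higher where libraries differ more). At 72 h it was 7.59 to 8.61 across the split, 5.15 between replicates 1 and 2 and 3.49 between replicates 3 and 4. Against the mean of the 0 h libraries, Nanog at 72 h stood at 125% in replicates 1 and 2 and at 33.7% in replicates 3 and 4. Tbx3 stood at 262% and 117%, Esrrb at 50.4% and 13.9%, and Nr0b1 at 14.4% and 3.60%. At 72 h the 10 other naive genes, higher in replicates 1 and 2, summed to 1144, 869, 372 and 347 CPM in replicates 1 to 4, against 1704 and 1690 CPM at 0 h. Neural markers, lower in replicates 1 and 2, summed to 180, 259, 381 and 330 CPM, against 206 and 188 CPM at 0 h. Extra-embryonic endoderm markers did not follow the split, at 5038, 2846, 3403 and 3011 CPM with replicate 1 highest, against 770 and 747 CPM at 0 h. Their part in the result was not tested.

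The 0 h group holds only replicates 3 and 4, so a fit on these replicates alone was added after the split was seen. In it Nanog fell by 1.59 ± 0.15 at 72 h and by 0.61 ± 0.14 at 48 h on the log2 scale, and Tbx3 at 72 h, at 0.21, was not called. Nr0b1 fell by 4.85, Nr5a2 by 3.02 and Klf2 by 2.95 at 72 h. At each of 24, 48 and 72 h 9 members were called, with Tbx3 (0.75) called higher at 24 h. At 4 h this fit called 4 members, with Klf4 (-0.42) and Klf5 (-0.66) lower and Tbx3 (0.56) and Nr0b1 (0.65) higher. In the corresponding fit of replicates 1 and 2 after RA against 0 h, 8 members were called at 72 h, Tbx3 was higher by 1.36 and Nanog, at 0.30, was not called. The share of all genes called is not given for either fit, and the shares of the full fit do not carry over. These counts therefore have no background beside them.

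In the authors' deposited table, Nr0b1 is classed as repressed with a time of 24 h. The authors' deposited table classes Nr5a2 (24 h), Klf2, Esrrb, Tfcp2l1 and Zfp42 (48 h) and Klf4 (72 h) as downregulated. Nanog, Klf5 and Tbx3 are classed as stably active in the authors' deposited table. The order differs from that of the tests above for Tfcp2l1, called at 72 h, and for Klf5, called lower at 72 h.

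Of the 10 other naive genes, a list that includes Tdh, Tcl1, Dppa3 and Pecam1, 8 fell and none rose at 72 h in E14, with a median log2 change of -1.60. Of all tested genes 29.3% were called lower and 30.4% higher. Tdh, threonine dehydrogenase of mouse stem cells, fell by 4.55 ± 0.41 on the log2 scale. Of 6 genes of LIF and STAT3 signalling, 4 fell and 1 rose. Socs3, the feedback inhibitor induced by STAT3, fell by 1.45 ± 0.17, and the receptor gene Lifr by 1.154 ± 0.138, while the kinase gene Jak1 rose by 1.27 ± 0.18.

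**Figure D2:**
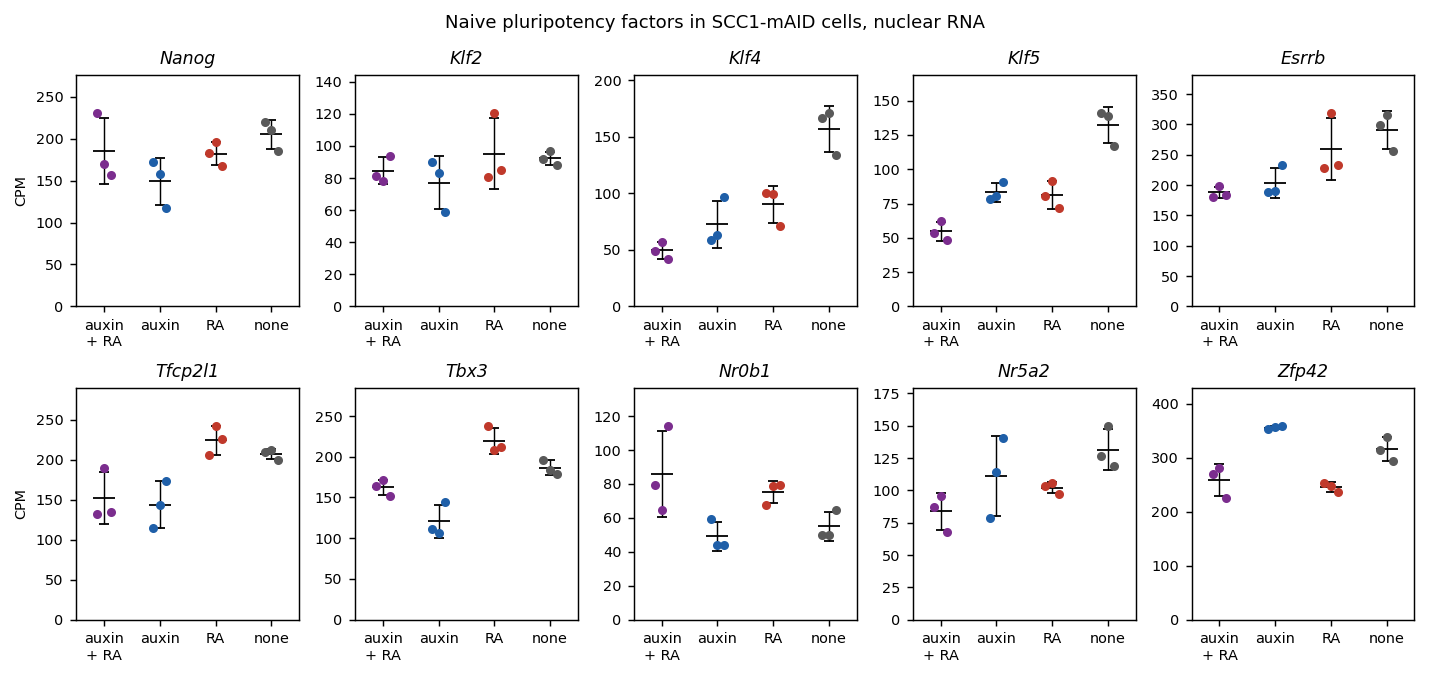
CPM of each of the 10 genes in every SCC1-mAID library, for auxin and RA, auxin, RA and untreated cells from left to right (3 libraries each, bars for mean ± SD). Klf4 and Klf5 are highest in untreated cells, and Klf4 is lowest with auxin and RA together.

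In SCC1-mAID cells, nuclear Klf4 and Klf5 fell after 4 h of RA, and Klf4 fell after 6 h of auxin without RA. With auxin present, RA lowered Klf5 and raised Nr0b1. None of the 10 members was called for a difference in the RA response with and without auxin. RA alone called 2 members, against 2.57% of all genes, auxin alone 1, against 0.235%, and RA in the presence of auxin 2, against 2.64%.

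Klf4 had 49.1, 57.4 and 42.2 CPM with auxin and RA, 58.6, 62.9 and 96.6 CPM with auxin, 100.1, 99.6 and 71.1 CPM with RA, and 167, 171 and 134 CPM untreated. Every treated library lay below every untreated one. The log2 change was -1.11 ± 0.19 with auxin against untreated (adjusted p = 0.026, edgeR) and -0.81 ± 0.19 with RA against untreated (adjusted p = 0.029, edgeR). Klf5 had 53.4, 62.1 and 48.5 CPM with auxin and RA, 78.0, 80.3 and 91.0 CPM with auxin, 80.4, 91.5 and 71.4 CPM with RA, and 141, 139 and 117 CPM untreated. Its libraries were likewise all below untreated ones under each treatment. Klf5 changed by -0.71 ± 0.14 with RA against untreated (adjusted p = 0.0085) and by -0.60 ± 0.15 with auxin and RA against auxin (adjusted p = 0.033, both edgeR). With auxin alone its change of -0.67 was not called (adjusted p = 0.059, edgeR).

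Nr0b1 had 79.5, 64.6 and 114 CPM with auxin and RA, against 59.2, 44.2 and 43.8 CPM with auxin. The groups did not overlap, and the log2 change was 0.81 ± 0.19 (adjusted p = 0.029, edgeR). With RA it had 67.7, 78.8 and 79.1 CPM, against 50.1, 49.99 and 64.7 CPM untreated, also without overlap, but this difference was not called. Tbx3 had 111, 106 and 144 CPM with auxin, against 196, 184 and 179 CPM untreated, without overlap. Its log2 change of -0.63 was not called (adjusted p = 0.061, edgeR), and without auxin replicate 3 it was -0.78 and called (adjusted p = 0.013, edgeR). DESeq2 called both Klf5 (adjusted p = 0.0025) and Tbx3 (adjusted p = 0.0019) lower with auxin alone.

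With auxin alone, Nanog had 172, 158 and 118 CPM, against 220, 210 and 186 CPM untreated. Esrrb had 189, 191 and 232 CPM with auxin, against 299, 316 and 256 CPM untreated, a log2 change of -0.51 (adjusted p = 0.17, edgeR). Tfcp2l1 had 114, 143 and 173 CPM with auxin, against 210, 212 and 200 CPM untreated, a log2 change of -0.53 (adjusted p = 0.20, edgeR). These 3 genes did not overlap between the groups but were not called, where 0.235% of all genes were called. How many of all genes separate in this way was not counted, so the lack of overlap has no background beside it. Zfp42 was at 352, 357 and 358 CPM with auxin, against 315, 338 and 294 CPM untreated, the other direction, and was not called either.

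With auxin and RA against RA, edgeR called no member, with 5 at an unadjusted p under 0.05 and 2 called by DESeq2, against 0.363% of all genes called by edgeR. The difference of the RA response ranged over the members from -0.10 to 0.50 on the log2 scale, with 0 called by edgeR and by DESeq2, 1 at an unadjusted p under 0.05 and 0% of all genes called. Summed extra-embryonic endoderm markers were 1123 to 1443 CPM with auxin and RA, 916 to 1603 CPM with auxin, 1007 to 1479 CPM with RA and 1244 to 1550 CPM untreated, and up to 5 of these markers were at 0 in a library.

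The SCC1-mAID calls rested on single libraries and on the scaling. Klf4 with RA lost its call without any 1 of RA replicates 1 to 3 or untreated replicates 1 and 2 (adjusted p up to 0.17, edgeR), and Klf5 with RA without RA replicate 3 or untreated replicates 1 or 2 (0.053 to 0.069). Klf4 with auxin lost its call without auxin replicate 2 (0.089), untreated replicate 1 (0.14) or untreated replicate 2 (0.11). With auxin and RA against auxin, Klf5 and Nr0b1 both lost their calls without auxin and RA replicate 1 or 3 or auxin replicate 2 or 3 (adjusted p 0.068 to 0.15, edgeR). Tbx3 (0.58, without auxin replicate 3), Nr5a2 (-0.59, without auxin replicate 1) and Zfp42 (-0.52, without auxin and RA replicate 2) were newly called there with that library left out. Zfp42 was also called there with all libraries by DESeq2 (-0.46, adjusted p = 0.0043) and with the replicate number as a block (-0.47, adjusted p = 0.031, edgeR). Under the authors' scaling no member was called in any SCC1-mAID comparison, although Klf4 kept its direction, at -0.58 with RA and -1.26 with auxin.

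**Figure D3:**
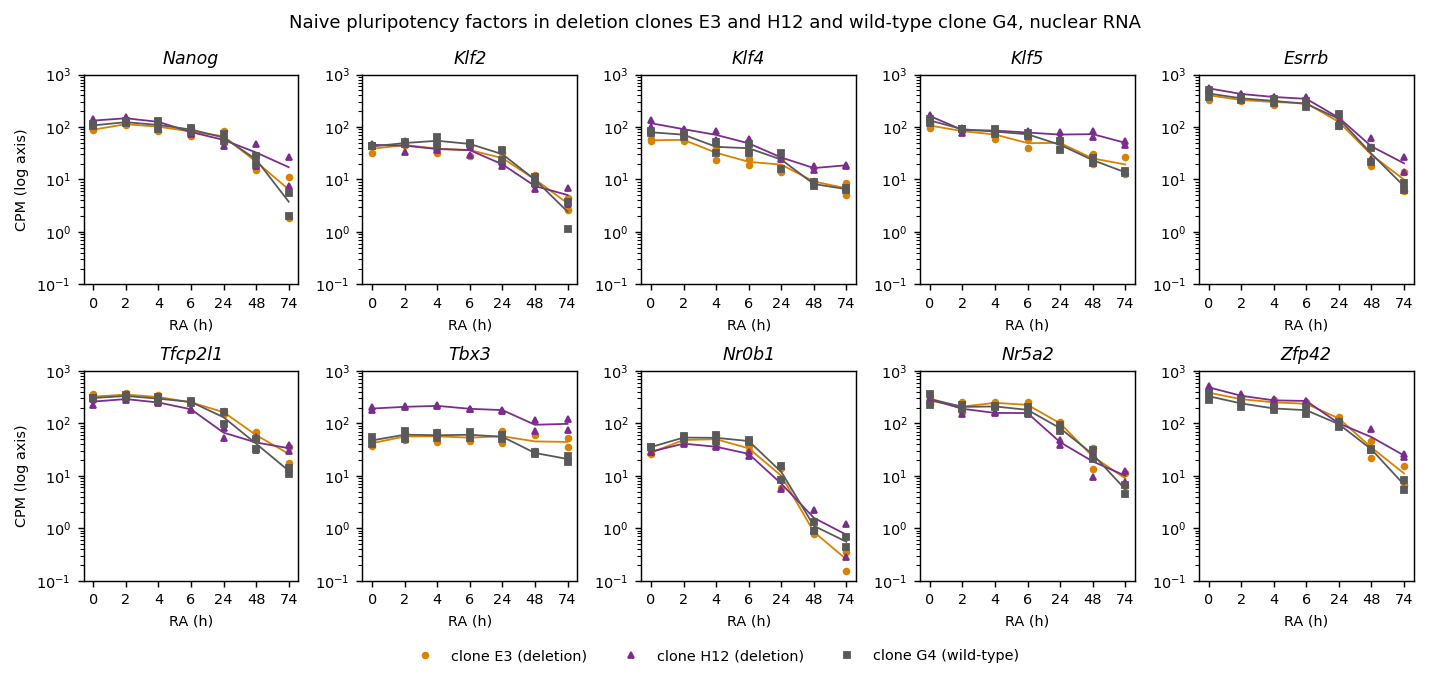
CPM (log axis) of each of the 10 genes in every library of deletion clones E3 and H12 and the wild-type clone G4 against hours of RA (evenly spaced), with lines through clone means. In each clone all genes are lower at 74 h than at 0 h, except Tbx3 in E3. H12 lies above the other clones for Tbx3 at all times and for Klf5 at 48 and 74 h.

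In nuclear RNA of the clones, averaged over E3, H12 and G4, Klf5 was the first member called lower, at 2 h. Klf4 and Zfp42 followed at 4 h, Esrrb and Nr5a2 at 6 h, and Nanog, Klf2, Tfcp2l1 and Nr0b1 at 24 h. Tbx3 was called lower at 48 h. Nr0b1 was higher at 2 and 4 h before it fell. In both directions, 2, 4 and 5 members were called at 2, 4 and 6 h, against 20.7%, 20.6% and 20.3% of all genes. At 2 h the count of members called is thus no higher than the background. Then 9 members were called lower at 24 h and 10 at 48 and at 74 h, against 27.2%, 34.8% and 37.2% of all genes. At 74 h 9 members were lower by at least 2-fold, against 15.1% of all genes. Called times depend on a gene's spread as well as on its size of change, and the nuclear and total RNA sets differ in clone, fraction and depth, so the 2 orders are set side by side without a test.

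Klf5 had 83.8 and 82.9 CPM in E3, 77.7 and 97.4 CPM in H12 and 90.6 and 90.4 CPM in G4 at 2 h. At 0 h it had 95.3 and 118 CPM in E3, 173 and 152 CPM in H12 and 122 and 145 CPM in G4. Within each clone the 2 h libraries were below those of 0 h. The mean change was -0.60 ± 0.14 on the log2 scale (adjusted p = 0.0021, edgeR), and -1.01 at 6 h. Klf4 had 18.8 and 24.5 CPM in E3, 38.5 and 59.1 CPM in H12 and 32.0 and 46.6 CPM in G4 at 6 h. Its 0 h values were 53.5 and 58.2 CPM in E3, 137 and 99.2 CPM in H12 and 76.8 and 82.0 CPM in G4. Each clone was thus lower at 6 h without overlap, with a mean change of -1.22.

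The mean change of Nr0b1 was 0.63 at 2 h (adjusted p = 0.0032, edgeR) and 0.58 at 4 h. At 2 h it had 47.9 and 48.5 CPM in E3, 40.7 and 41.5 CPM in H12 and 49.6 and 57.7 CPM in G4. At 0 h it had 26.4 and 29.1 CPM in E3, 28.9 and 28.9 CPM in H12 and 35.4 and 35.4 CPM in G4. All 6 libraries at 2 h were above all 6 at 0 h. At 74 h Nr0b1 was down to 1 and 3 reads in E3, 8 and 2 in H12 and 6 and 3 in G4, and its fitted change of -5.93 is therefore imprecise.

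Zfp42 changed by -0.74 at 4 h and -1.90 at 24 h, Esrrb by -0.61 at 6 h (adjusted p = 0.040, edgeR) and -1.72 at 24 h, and Nr5a2 by -0.61 at 6 h (adjusted p = 0.029, edgeR) and -1.99 at 24 h. At 6 h the call of Esrrb was lost in 10 of the 12 fits that left out 1 library of these times, and that of Nr5a2 in 7, the libraries coming from all 3 clones (changes of -0.47 to -0.67). DESeq2 did not call Esrrb there (adjusted p = 0.060). At 24 h Nanog had changed by -0.80, Klf2 by -0.78 and Tfcp2l1 by -1.38. At 74 h the order by size was Nr0b1, Esrrb (-5.30), Nr5a2 (-5.14), Zfp42 (-4.99), Nanog (-3.81), Tfcp2l1 (-3.72), Klf2 (-3.55), Klf4 (-3.09) and Klf5 (-2.48). Neighbours among Esrrb, Nr5a2 and Zfp42 in this order differed by less than their SE of 0.27, 0.25 and 0.22. Nanog, Tfcp2l1 and Klf2 likewise differed by no more than the SE of Nanog, 0.31.

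As a share of each clone's own 0 h level, Nanog at 74 h stood at 7.26% in E3, 12.9% in H12 and 3.51% in G4, and Esrrb at 2.47%, 3.71% and 1.71%. Tbx3 stood at 106% in E3, 51.1% in H12 and 44.2% in G4. Its mean change was -0.57 at 48 h and -0.69 at 74 h, and without E3 replicate 1 at 48 h the change at 48 h was -0.39 and not called (adjusted p = 0.051, edgeR). All 10 other naive genes fell at 74 h, against 37.2% of all genes, with a median log2 change of -3.79.

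**Figure D4:**
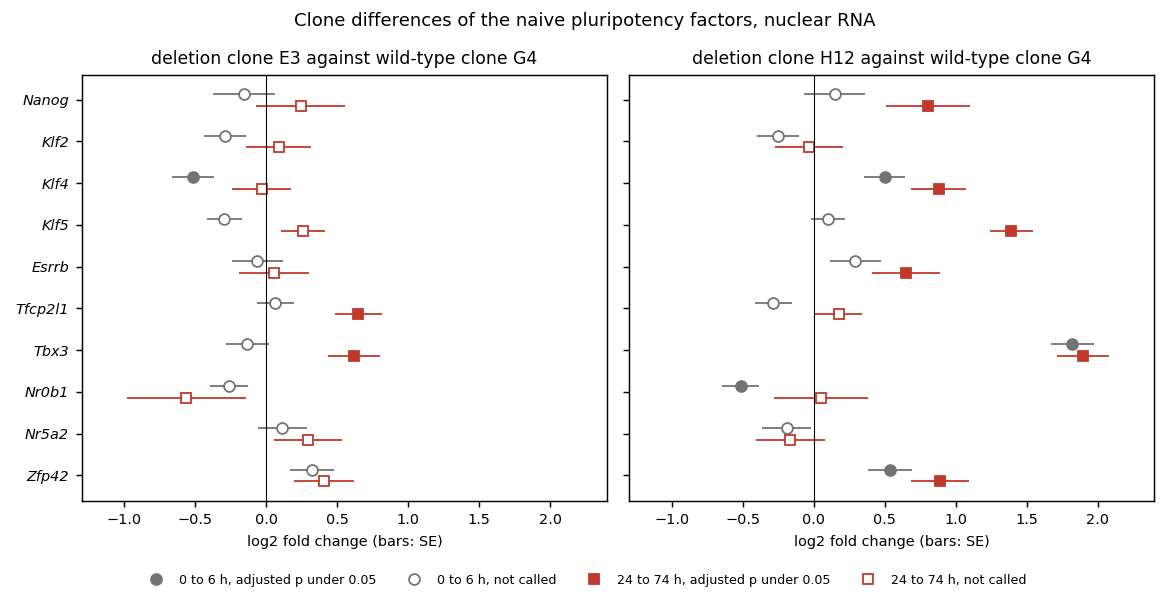
Log2 fold change ± SE of each of the 10 genes for E3 against G4 and H12 against G4, over 0 to 6 h and over 24 to 74 h, with filled symbols where called. Tbx3 of H12 stands at 1.82 and 1.90, and Klf5 of H12 at 1.39 in the later window, being uncalled in the earlier one.

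H12 differed from G4 mainly in Tbx3, which it expressed more highly throughout, and in Klf5, which fell less in H12 after 6 h. Over 0 to 6 h 4 members were called in H12 against G4, where 40.1% of all genes were called, so the count is no higher than the background. Over 24 to 74 h 6 were called, against 27% of all genes. In E3 against G4, 1 member was called early and 2 late, against 10.5% and 8.87% of all genes.

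Tbx3 over 0 to 6 h had a lowest, median and highest value of 180, 203 and 220 CPM in H12, 37.1, 47.0 and 69.4 CPM in E3 and 40.6, 53.9 and 70.7 CPM in G4 (8 libraries each). H12 lay wholly above the other clones, and E3 and G4 overlapped. The log2 difference of H12 from G4 was 1.82 ± 0.15 early (adjusted p = 1.4e-10) and 1.90 ± 0.18 late (adjusted p = 6.4e-09, both edgeR). Late it had 70.7, 120 and 182 CPM in H12, 30.1, 47.6 and 71.9 CPM in E3 and 18.2, 27.3 and 61.4 CPM in G4 (6 libraries each). E3 was above G4 late by 0.62 ± 0.18 (adjusted p = 0.030, edgeR), against 1.90 in H12, and this call was lost without replicate 2 of E3 at any of the 3 times, G4 replicate 2 at any of them or G4 replicate 1 at 48 h (0.42 to 0.64). Tbx3 lies at mm10 chr5:119670862-119684724 on the plus strand. Of 36 tested coding neighbours within 2000000 bases, 12 were called higher and 4 lower in H12 than in G4 early. Their early changes ran from -0.76 to 1.12, with a median of 0.25. Late, 4 of the 36 were called higher and 1 lower, with changes from -0.77 to 1.26 and a median of 0.09. Of all genes, 40.1% were called early and 27% late, in either direction.

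Klf5 at 74 h had 54.5 and 45.4 CPM in H12, 12.4 and 26.3 CPM in E3 and 13.04 and 14.3 CPM in G4. Over 24 to 74 h it ranged from 45.4 to 82.9 CPM in H12, from 12.4 to 54.1 CPM in E3 and from 13.04 to 54.5 CPM in G4. H12 was above both other clones at each of these times. The late difference of H12 from G4 was 1.39 ± 0.15 (adjusted p = 2.9e-08, edgeR). The change from the early to the late window also differed between H12 and G4, by 1.29 ± 0.19 (adjusted p = 1.3e-05, edgeR), and Klf5 was the only member called there, against 15.7% of all genes, with Tfcp2l1 (0.60) added without G4 replicate 1 at 24 h. Klf5 lies at mm10 chr14:99298691-99313409 on the plus strand, and of its 6 tested neighbours none was called higher and 2 were called lower in both windows.

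Klf4 was higher in H12 than in G4 early (0.50, adjusted p = 0.0059, edgeR) and late (0.88), and so was Zfp42 (0.54 and 0.89). Nr0b1 was lower in H12 early (-0.51, adjusted p = 0.0024, edgeR). Nanog (0.80, adjusted p = 0.045) and Esrrb (0.65, adjusted p = 0.046, both edgeR) were higher in H12 late, and each lost its call in 7 fits that left out 1 library. Those were H12 replicate 1 at 24, 48 or 74 h and G4 replicate 2 at 24, 48 or 74 h for both genes, G4 replicate 1 at 24 h for Nanog and G4 replicate 1 at 74 h for Esrrb, with the lowest changes 0.41 and 0.38. H12 cultures also differed in other markers. Extra-embryonic endoderm markers summed to 20890 to 23000 CPM in H12 at 74 h, 2692 to 3338 CPM in E3 and 2416 to 3276 CPM in G4, with at most 1 of them at 0. At 48 h they summed to 4420 to 4729 CPM in H12, 1602 to 2902 CPM in E3 and 2018 to 2170 CPM in G4. In the late window 13 of 15 tested genes of this list were called higher in H12 than in G4, against 13.6% of all genes. Their part in the late differences was not tested, and at 0 h, where Tbx3 was already higher in H12 (203 and 180 CPM, against 40.6 and 54.3 CPM in G4), the list summed to 645 to 711 CPM in H12 and 833 to 932 CPM in G4.

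E3 was lower than G4 in Klf4 early (-0.51 ± 0.15, adjusted p = 0.023, edgeR), and higher in Tfcp2l1 late (0.65 ± 0.17, adjusted p = 0.011, edgeR). The call of Klf4 was lost without E3 replicate 1 at 4 or 6 h or G4 replicate 2 at 2, 4 or 6 h (-0.42 to -0.48), and that of Tfcp2l1 without replicate 2 at 74 h of E3 (0.46) or G4 (0.59). No member was called for a different change over time in E3 and G4 by edgeR, with 3 at an unadjusted p under 0.05, 1 called by DESeq2 and 2.83% of all genes called. Without 1 library, Klf5 (E3 replicate 1 at 74 h), Tfcp2l1 (G4 replicate 1 at 24 h) or Tbx3 (E3 replicate 1 at 24 or 48 h) was called there, at 0.69 to 0.88. E3 against H12 called 4 members early and 4 late, against 37.3% and 20.8% of all genes. Tbx3 was lower in E3 than in H12 by 1.96 early and 1.28 late on the log2 scale, and Klf5 by 0.40 and 1.14. Klf4 was lower in E3 as well, with medians of 47.5 CPM in E3 and 86.8 CPM in H12 early and of 9.16 and 18.6 CPM late. Tfcp2l1 was higher in E3 in both windows (0.34 and 0.47), but its early call was lost in 10 and its late call in 6 of the fits that left out 1 library.

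Members that shared a profile across the 67 libraries of E14 and the clones did not share it equally. Over the 45 member pairs, r ranged from 0.27 to 0.987 with a median of 0.886, and Tbx3 had the lowest median with the others, 0.456. Among 11042 genes, the one most like Klf2 was Pou5f1, which encodes OCT4 (r = 0.971), and the one most like Nr5a2 was Fgf4, which encodes a growth factor of stem cells (r = 0.973). Klf4 and Klf5 were each other's nearest gene (r = 0.922), followed by Klf8 for both (0.914 and 0.903). Nearest to Tfcp2l1 was Nr5a2 (0.967), nearest to Nanog was Chchd10 (0.945), nearest to Nr0b1 was Nphs1 (0.977) and nearest to Tbx3 was Gm364 (0.867).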

How the data were processed

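Total RNA (E14) and nuclear RNA (SCC1-mAID, clones) libraries were depleted of ribosomal RNA, made directional and read as pairs, with Drosophila SG4 cells mixed in for calibration, per the labels' protocols. STAR, Bowtie2, SAMtools and DESeq2 with mm10 and dm6 are named per the submitters' processing notes; the counting program and its use of strand are not given in the sources used here. The authors deposited a normalised signal per RefSeq transcript, which is the read count divided by 1 size factor per library, and FPKM for E14. A deposited column of times and classes (another kind of value) was only quoted.

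Whole reads were recovered from the signal, with 100% of values within 0.1 of a read. Sets of transcripts that share a span gave identical reads in 3747 of 3747 cases in SCC1-mAID, 3746 of 3746 in the clones and 663 of 3747 in E14, so the first 2 tables count introns. The transcript with most reads was kept per gene symbol.

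Reads were tested with edgeR 4.0.16 in R 4.3.3 (limma 3.58.1, statmod 1.5.0), with TMM scaling, filterByExpr, its robust quasi-likelihood test and p-values adjusted by Benjamini-Hochberg over the 15084 (E14), 14031 (SCC1-mAID) and 15923 (clones) genes, at a threshold of 0.05. The SE is the absolute log2 change divided by the square root of F. All groups of a set shared 1 fit. Changes with RA in the clones average the 3 clones, and clone differences average the times of a window. The members, lists, windows and tests were chosen with earlier results of these data known. All 10 members are named, of other lists at most 4 genes called with at least 2-fold change, largest first, and per member the 3 genes most like it (fewer are printed). Alternatives were the authors' size factors, DESeq2 1.42.0, no filter, limma on log2(signal + 1), the longest transcript, each library left out, the replicate number as a block, only the compared groups, and replicates 3 and 4 alone in E14. Among tested comparisons with at least 3 pairs, replicate numbers deviated together (every pair's r over 0.1) in 3. These were E14 24 h against 6 h, E14 48 h against 24 h and SCC1-mAID RA against untreated. Comparisons with 2 pairs, as in the clones and against 0 h in E14, were not judged. The main tests did not use the pairing, and the replicate block is the paired fit.

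On simulated reads the fit recovered 67% of 2-fold and 94.9% of 4-fold changes for E14 at 24 h, 86% and 97% for SCC1-mAID with RA, and 90.6% and 98% for the clones at 24 h. False calls numbered 6, 6 and 9. The simulated spread followed the trend over all genes, with no split between replicates and no change at other times. These rates therefore do not give the power for the members in the real libraries. Counts of reads are not independent molecules, and Nr0b1 at 1 to 8 reads late in the clones is known only to counting error.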

Additional observations from a re-analysis of the deposited data

Results flagged for a closer look

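Of 50 sets of 4 E14 libraries, 1 per gene and time, 3 held a library far from the other 3, where chance gives about 1 in 20. Klf2 at 48 h had 77.6 CPM in replicate 1, against 52.2 to 53.0 CPM in the others. Nr0b1 at 2 h had 137 CPM in replicate 2 (81.2 to 88.3 CPM in the others). Nr5a2 at 6 h had 78.1 CPM in replicate 1, and the lowest library had 68.9 CPM.

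Among 30 tests of whether an effect differed between groups (10 members for auxin in the RA response, for E3 and for H12), Klf5 in H12 passed, its change from the early to the late window differing from that in G4 by 1.29 on the log2 scale (adjusted p = 1.3e-05, edgeR). In that comparison 15.7% of all genes were called, so 1 of 10 members is no higher than the background. The shares were 2.83% for E3 and 0% for auxin. All 6 late H12 libraries had at least 45.4 CPM of Klf5.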

How the results depend on the processing

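Of 4980 values of members under alternatives, 4690 kept their side of the threshold with the same direction or, if uncalled, a shift under 1 SE; 155 were no longer called, 103 were newly called, 30 uncalled values changed sign by more than 1 SE and 2 reversed with a call. Both reversals were of Nanog with E14 replicates 3 and 4 only: -0.61 at 48 h against 0 h and -0.57 at 48 h against 24 h, where all libraries gave 0.03 and 0.01. Counts of members called that moved by over 1.5 times were as follows. Shares of all genes called under each alternative are not printed beside them. With E14 replicates 3 and 4 only, 4 were called at 4 h, 3 at 6 h and 9 at 24 h, and 7 from 6 h to 24 h, 10 from 24 h to 48 h and 6 from 48 h to 72 h, against 0, 0, 2, 2, 3 and 1. With replicates 1 and 2 after RA, 4 were called at 24 h. With only the compared groups in the fit, 3 were called at 4 h, 4 at 6 h, 7 at 24 h, 3 at 48 h, 6 from 6 h to 24 h and 0 from 48 h to 72 h; in SCC1-mAID this gave 4 for RA, 0 for auxin, 0 for auxin and RA against auxin and 1 for auxin and RA against RA. The authors' size factors and limma each gave 1 for E14 at 24 h and 0 for RA, auxin and auxin and RA against auxin in SCC1-mAID. DESeq2 gave 3 for auxin, 2 for auxin and RA against RA and 1 for the different change over time in E3. No filter gave 3 for auxin, 1 for auxin and RA against RA, 3 for the clones at 6 h and 1 for E3 against G4 late. Limma gave 1 for the clones at 2 h and 3 at 6 h.

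With the replicate block, 4 members were called in E14 at 24 h and 3 for auxin, where numbers do not pair the libraries. Where they do, the block called Esrrb (-1.10, adjusted p = 0.0497, edgeR) in addition from 24 h to 48 h and changed no other call count.

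Leaving out 1 library gave 1 to 2 calls at 24 h, 4 to 8 at 48 h and 6 to 9 at 72 h in E14, 3 to 5 from 24 h to 48 h and 0 to 1 from 48 h to 72 h. In SCC1-mAID it gave 0 to 2 for RA, 0 to 2 for auxin, 0 to 3 for auxin and RA against auxin and 0 to 1 for auxin and RA against RA. In the clones it gave 2 to 3 at 2 h, 3 to 5 at 6 h, 9 to 10 at 48 h, 0 to 1 and 0 to 2 for E3 against G4 early and late, 4 to 6 for H12 against G4 late, 3 to 4 and 3 to 6 for E3 against H12, and 0 to 1 (E3) and 1 to 2 (H12) for the different change over time. The cause of these shifts was not tested beyond the libraries or groups removed.

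Under the authors' size factors the median of all genes moved by 0.27 at 72 h against 0 h in E14 and by 0.19 for RA in SCC1-mAID. All genes then split into 5886 higher and 2800 lower at 72 h (4587 and 4423 with TMM), 3333 and 558 from 48 h to 72 h (963 and 918), 2127 and 930 from 6 h to 24 h (1802 and 1784), 247 and 390 at 6 h (326 and 271), 72 and 0 for RA in SCC1-mAID (260 and 101), and 42 and 5 for auxin and RA against auxin (256 and 114). Depth limits Nr0b1 late in E14, at 6 to 32 reads.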

Other observations

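Of 12 genes of general pluripotency, such as Pou5f1 and Sox2, 10 fell and none rose in E14 at 72 h, with a median log2 change of -2.34, against -1.60 for the 10 other naive genes. Of all tested genes 29.3% were called lower there. In the clones at 74 h 11 of 12 fell, against 37.2% of all genes. Over 24 to 74 h, 9 of the 12 were called higher and 1 lower in H12 than in G4. Of the 10 other naive genes 5 were called higher and 1 lower, against 13.6% and 13.4% of all genes. Genes of 2-cell-like cells summed to 326, 161, 149 and 108 CPM in E14 replicates 1 to 4 at 72 h, against 5.33 and 8.12 CPM at 0 h.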
